A study of Homo sapiens with 9 samples.

Results

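RNA levels of genes for DNA replication and for mitosis were examined in HEK 293 cells, an established human embryonic kidney line, transfected for 72 h with MBD-VP16, with Aire or with the empty vector PCMV. Each of the 3 groups held 3 one-colour arrays, 9 in all, and every group shared the cell line, the transfection and the time. The transfection was transient, so a culture can mix cells that did and did not take up a plasmid, and the labels give neither the share of such cells nor the species or extent of the Aire and MBD sequences. The labels call the samples of a group biological replicates without saying how cultures were kept apart, and the p-values below therefore speak only of how far these arrays spread. The genes were chosen by name: of 53 symbols, 49 were found as such among the names of the 25679 transcript clusters with values (a cluster is a probe set that reads 1 transcript region). They comprise 24 genes of the replication machinery, 6 regulators of the step from G1 into S phase and 19 genes of mitosis. The other 4 (ORC1, ORC6, CDC45 and CDK1) stand in the table under older symbols and are given apart. Values are log2 expression, on which a difference of 1 is a doubling.

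Before S phase the origin recognition complex with CDC6 and CDT1 loads the MCM2 to MCM7 ring, an inactive helicase, onto DNA, and CDC45 and the GINS complex then turn it on. PCNA, a sliding clamp, and the RFC complex that loads it serve the DNA polymerases. Transcription of these genes is driven mainly by E2F factors at the G1/S boundary, whereas genes of mitosis peak later under the MuvB complex with B-MYB and FOXM1, so that levels of both classes in a dividing culture reflect how cells are spread over the cycle. In bulk RNA, fewer cells in a phase and less RNA per cell cannot be told apart.

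Replication genes mostly lay lower with both constructs (20 of 24 with MBD-VP16 and 21 of 24 with Aire), and mitosis genes lay slightly higher with Aire (18 of 19) and on both sides of the vector level with MBD-VP16 (13 higher, 6 lower). Both comparisons share the 3 vector arrays, so their values are set side by side and not counted as 2 independent observations. With MBD-VP16 against vector, 8 of 24 replication genes fell and 1 rose (limma adjusted p under 0.05), and 1 of 19 mitosis genes fell and 1 rose, 11 of the 49 genes or 22.4% with the G1/S regulators, of which none passed. In that comparison 9.89% of all clusters passed, 5.14% lower and 4.75% higher. All 49 genes lie among the 12841 clusters with a mean signal at or above the median, of which 14.9% passed, 8.87% lower and 6.07% higher. With Aire against vector, 7 of 24 replication genes fell and 1 rose and 1 of 19 mitosis genes rose, 9 of the 49 genes or 18.4%. There 4.4% of all clusters passed, 2.82% lower and 1.58% higher, and 7.49% of the brighter clusters, 4.97% lower and 2.52% higher. The share of called mitosis genes (10.5% with MBD-VP16 and 5.26% with Aire) is near these background shares. PLK1 enters these and the later counts and medians by a cluster at RPL37A. With the cluster at PLK1 itself, 2 of 19 mitosis genes, or 10.5%, rose with Aire. There 1.58% of all clusters and 2.52% of the brighter ones passed higher. The nearness to background with Aire thus rests on the RPL37A cluster. The median log2 fold change of the replication genes was -0.22 with MBD-VP16 and -0.19 with Aire, beside medians of 0.00 and 0.03 over all clusters. That of the mitosis genes was 0.01 with MBD-VP16 and 0.15 with Aire. Of the 49 genes, 12 passed in at least 1 comparison and 37 in none, and the largest change was 0.58 log2 units.

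The calls of single genes lay close to the threshold. All 9 genes called with Aire lost the call when at least 1 of the 9 arrays was left out, and 10 of the 11 called with MBD-VP16 did. No gene was called with Aire when Aire replicate 2 or Aire replicate 3 was left out, and the lowest count with MBD-VP16 was 2, without MBD-VP16 replicate 3. Fewer calls were then made over the whole table as well, 287 clusters with Aire without either of those arrays against 1131 with all arrays. With MBD-VP16 1444 clusters passed without its replicate 3, against 2539 with all arrays.

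Separation of the arrays was counted beside the test. With Aire, all 3 arrays lay below all 3 vector arrays for 18 of 24 replication genes and above them for 3. For the mitosis genes they lay above for 13 of 19 and below for 0. Over all clusters 24.9% were separate, 12.6% below and 12.3% above, and among the brighter clusters 36.6%, with 20.6% below and 15.9% above. With MBD-VP16 18 replication genes lay below and 2 above, while 1 mitosis gene lay above and 1 below. Over all clusters 28.3% were separate in that comparison, 15.1% below and 13.2% above, and among the brighter clusters 40.7%, with 23.9% below and 16.8% above.

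**Figure D1:**
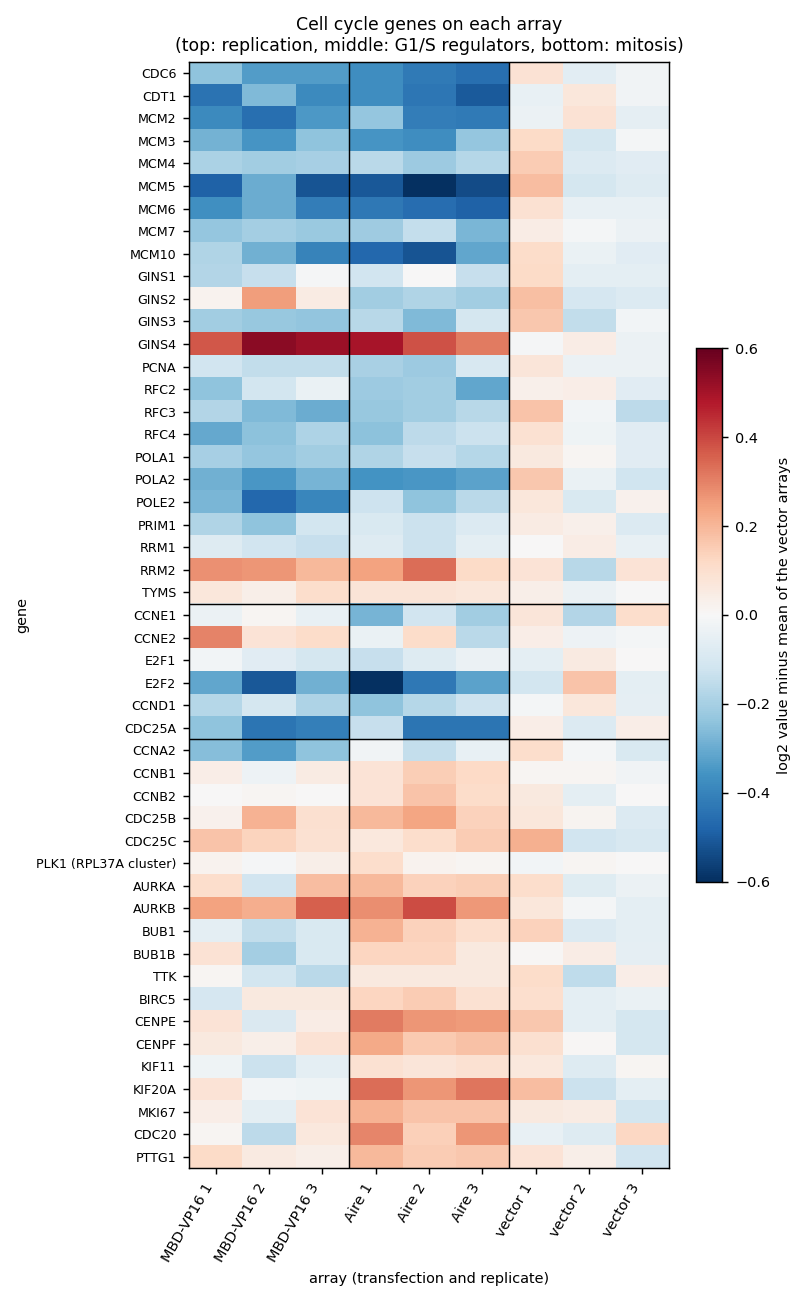
Each row is 1 of the 49 genes, each column 1 of the 9 arrays, and the colour is the log2 value minus the mean of the 3 vector arrays (blue lower, red higher). The replication rows at the top are mostly blue on the 6 MBD-VP16 and Aire arrays except GINS4, RRM2 and TYMS, and GINS2 with MBD-VP16, and the mitosis rows at the bottom are mostly red on the Aire arrays and mixed in colour on the MBD-VP16 arrays; PLK1 is drawn here by its cluster shared with RPL37A.

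Taken per array, the median deviation of the replication genes from the vector mean was -0.20, -0.24 and -0.22 with MBD-VP16, -0.21, -0.21 and -0.17 with Aire, and 0.09, -0.04 and -0.05 with vector. That of the mitosis genes was 0.04, -0.03 and 0.04 with MBD-VP16, 0.19, 0.15 and 0.14 with Aire, and 0.08, -0.06 and -0.06 with vector. The replication median minus the mitosis median ran between -0.26 and -0.20 on the MBD-VP16 arrays, between -0.40 and -0.31 on the Aire arrays and between 0.00 and 0.02 on the vector arrays. Each vector array enters the mean it is set against, which draws its values towards 0. Set against the other 2 vector arrays instead, the difference ran between 0.00 and 0.03 on the vector arrays, and the 3 ranges do not overlap in either form. These medians summarise genes chosen by name and carry no p-value.

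**Figure D2:**
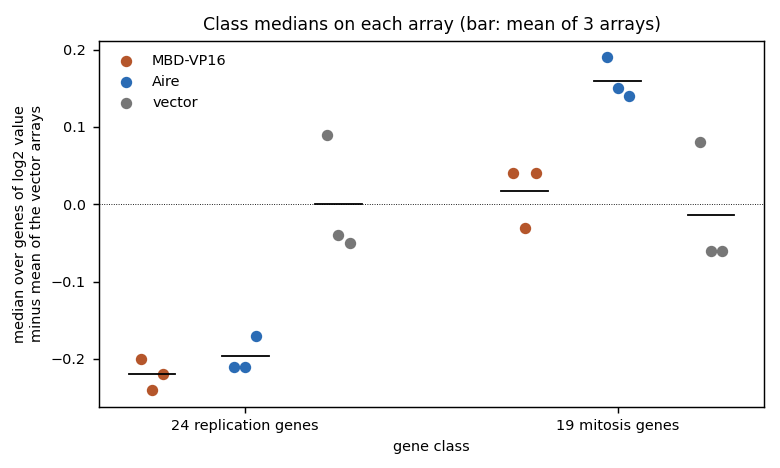
Points are the 9 arrays and bars the mean of 3 arrays; the vertical axis is the median over the genes of a class of the log2 value minus the vector mean. For replication all 6 points with MBD-VP16 or Aire lie below the 3 vector points, and for mitosis the 3 Aire points lie above all others, with vector replicate 1 next at 0.08.

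Promoters are shown because the replication and mitosis classes differed in their medians and are known to be read by different factors. Whether a motif match goes with a change in RNA level was not tested, for the classes or for single genes. Of the 53 named genes 45 have an entry in the RefSeq promoter table (GRCh38.p14, 250 bases before to 50 after the gene start, the first entry of a gene being used). An E2F motif (searched as TTCCCGC, then as TTGGCGC and then as TTCGCGC, on either strand) was found in 20 of 24 replication promoters, or 83.3%, in 4 of 17 mitosis promoters, or 23.5%, and in 11.2% of all 27305 promoters. The 24 replication promoters include ORC1, ORC6 and CDC45 and leave out MCM4, MCM5 and GINS4. Of the G1/S regulators, none of which was called, 3 of 4 promoters, or 75%, held an E2F match. The CHR element of mitotic genes was searched only as TTTGAA or TTTCGAA, on either strand. Such a match was found in 1 of 24 replication promoters, or 4.17%, in 8 of 17 mitosis promoters, or 47.1%, and in 15.9% of all. Other forms of the element were not searched, so these shares count those strings only. CCAAT, the NF-Y motif, was found in 62.5%, 76.5% and 35.7%. The median number of CpG dinucleotides was 30.5 in replication promoters, 24 in mitosis promoters and 14 in all promoters. A match is a run of letters and not a measured site.

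Below are the promoters of the 2 replication genes and the 2 mitosis genes of lowest adjusted p against vector among those with an entry. That of PLK1 is added, chosen after its motifs were seen because it holds TTTGAA, a CHR string searched. Capitals mark matches to the strings searched. MCM6 is at chr2:135876394-135876693 (minus strand), CDC6 at chr17:40287629-40287928 (plus), AURKB at chr17:8210176-8210475 (minus), CCNA2 at chr4:121823834-121824133 (minus) and PLK1 at chr16:23678639-23678938 (plus).
MCM6: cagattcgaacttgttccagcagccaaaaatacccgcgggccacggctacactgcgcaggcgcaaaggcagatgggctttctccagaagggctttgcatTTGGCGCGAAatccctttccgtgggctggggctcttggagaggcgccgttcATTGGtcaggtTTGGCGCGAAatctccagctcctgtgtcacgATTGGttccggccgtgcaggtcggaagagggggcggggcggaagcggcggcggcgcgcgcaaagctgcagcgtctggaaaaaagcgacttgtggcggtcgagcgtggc
CDC6: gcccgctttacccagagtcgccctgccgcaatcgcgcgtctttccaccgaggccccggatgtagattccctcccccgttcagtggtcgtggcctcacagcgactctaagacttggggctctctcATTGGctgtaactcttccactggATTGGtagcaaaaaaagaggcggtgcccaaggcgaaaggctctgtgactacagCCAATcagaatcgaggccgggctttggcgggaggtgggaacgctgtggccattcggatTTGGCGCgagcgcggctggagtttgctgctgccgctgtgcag
AURKB: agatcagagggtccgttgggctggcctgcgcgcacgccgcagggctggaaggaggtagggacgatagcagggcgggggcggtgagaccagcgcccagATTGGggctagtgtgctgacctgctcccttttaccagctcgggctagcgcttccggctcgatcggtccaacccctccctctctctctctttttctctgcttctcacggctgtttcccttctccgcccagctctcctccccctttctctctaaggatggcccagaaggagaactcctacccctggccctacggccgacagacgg
CCNA2: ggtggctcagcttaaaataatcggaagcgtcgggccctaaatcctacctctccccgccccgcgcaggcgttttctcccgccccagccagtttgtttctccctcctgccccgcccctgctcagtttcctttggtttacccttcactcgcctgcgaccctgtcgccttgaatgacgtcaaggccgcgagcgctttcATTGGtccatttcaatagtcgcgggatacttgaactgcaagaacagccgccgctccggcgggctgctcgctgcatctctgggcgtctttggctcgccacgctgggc
PLK1: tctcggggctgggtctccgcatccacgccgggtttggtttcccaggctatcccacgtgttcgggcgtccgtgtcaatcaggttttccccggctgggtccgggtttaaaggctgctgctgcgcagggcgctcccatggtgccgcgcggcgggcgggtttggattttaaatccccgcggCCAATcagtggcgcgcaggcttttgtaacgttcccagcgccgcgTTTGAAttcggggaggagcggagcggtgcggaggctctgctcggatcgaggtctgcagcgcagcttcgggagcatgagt
The MCM6 promoter holds 4 E2F matches in 2 runs, since TTGGCGC and the reverse of TTCGCGC overlap in each, starting 151 and 89 bases before the gene start, with 2 CCAAT matches on the reverse strand. CDC6 has 1 E2F match, 8 bases past the start, and 3 CCAAT matches. AURKB and CCNA2 have 1 CCAAT match each and none of the other letters searched. Other forms of the CHR element were not searched, so this does not show that these promoters lack it. PLK1 has CCAAT 73 bases and TTTGAA 29 bases before the start.

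**Figure D3:**
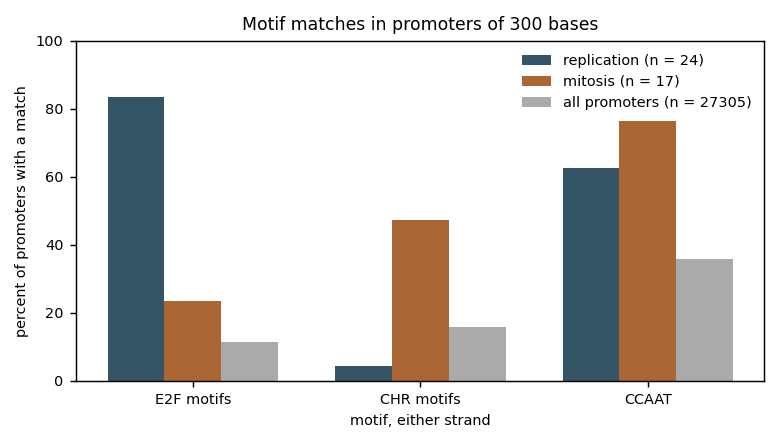
Bars give the percent of promoters with at least 1 match on either strand (vertical axis) for 3 motif sets, in 24 replication, 17 mitosis and all 27305 promoters. E2F motifs stand at 83.3% in replication promoters and CHR motifs, searched only as TTTGAA or TTTCGAA, at 47.1% in mitosis promoters. In all promoters they stand at 11.2% and 15.9%.

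The helicase loading genes held most of the falls. All 8 counted under their own symbols, which leaves out ORC1 and ORC6, had their MBD-VP16 and their Aire arrays below the vector arrays, 6 fell with MBD-VP16 (median log2 fold change -0.33) and 5 with Aire (median -0.39). MCM6, a subunit of the MCM ring (chromosome 2, 136597196 to 136634011 in the deposited table, whose build is not named), read 8.95, 9.02 and 8.90 with MBD-VP16, 8.89, 8.86 and 8.83 with Aire, and 9.41, 9.27 and 9.27 with vector. Neither construct overlaps with vector. It fell by 0.36 ± 0.068 log2 units with MBD-VP16 and by 0.46 ± 0.068 with Aire (SE; limma adjusted p = 0.0123 and 0.0111), 1.28-fold and 1.37-fold lower. The E2F matches of its promoter are shown above, and their part in the change was not tested.

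MCM5, another ring subunit (chromosome 22, 35796128 to 35820495), read 8.06, 8.25 and 8.03 with MBD-VP16, 8.04, 7.86 and 8.01 with Aire, and 8.73, 8.44 and 8.47 with vector. Vector replicate 1 is the highest value, and the groups do not overlap without it either. MCM5 fell by 0.43 ± 0.10 with MBD-VP16 and by 0.58 ± 0.10 with Aire (limma adjusted p = 0.0302 and 0.0192) and the change with Aire was the largest of the 49 genes.

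CDC6, the ATPase that recruits the ring to origins (chromosome 17, 38444146 to 38459413), read 9.61, 9.52 and 9.52 with MBD-VP16, 9.48, 9.43 and 9.40 with Aire, and 9.94, 9.79 and 9.83 with vector. Every vector value lies above all 6 others. It fell by 0.30 ± 0.068 with MBD-VP16 and by 0.42 ± 0.068 with Aire (limma adjusted p = 0.0243 and 0.0146). CDT1, its partner in loading, whose protein is destroyed in S phase (chromosome 16, 88870186 to 88875666), read 8.48, 8.66 and 8.54 with MBD-VP16, 8.55, 8.49 and 8.42 with Aire, and 8.88, 8.99 and 8.90 with vector. It fell by 0.36 ± 0.074 and 0.44 ± 0.074 (limma adjusted p = 0.0163 and 0.0166). These 4 genes lost their calls with 1 to 3 of the 9 arrays left out, the adjusted p then reaching 0.102 at most.

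MCM2, which also binds histones, read 7.91, 7.84 and 7.95 with MBD-VP16, 8.06, 7.88 and 7.87 with Aire, and 8.26, 8.38 and 8.24 with vector. It fell by 0.39 ± 0.078 with MBD-VP16 and by 0.36 ± 0.078 with Aire (limma adjusted p = 0.0146 and 0.0388), the Aire call being lost whichever array was left out. These groups do not overlap with vector. MCM3 read 9.01, 8.94 and 9.05 with MBD-VP16, 8.94, 8.92 and 9.06 with Aire, and 9.41, 9.19 and 9.28 with vector. It fell with MBD-VP16 (-0.29 ± 0.079; limma adjusted p = 0.0488, lost with any 1 of 8 arrays left out) and stood at -0.32 with Aire (adjusted p = 0.0566). MCM4 and MCM7 did not pass: MCM4 differed by -0.20 and -0.18 and MCM7 by -0.22 and -0.21 with MBD-VP16 and Aire, with 95% intervals for MCM7 of -0.36 to -0.08 and -0.35 to -0.07. ORC1 and ORC6, subunits of the origin recognition complex listed as ORC1L and ORC6L, differed by -0.21 and -0.15 with MBD-VP16 and by -0.36 and -0.14 with Aire, and neither passed. The Aire arrays of both lay below those of vector, as did the MBD-VP16 arrays of ORC6, while ORC1 with MBD-VP16 (7.54, 7.38 and 7.40) overlapped with vector (7.86, 7.61 and 7.47).

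Genes that activate the helicase did not move as 1 group. MCM10, an initiation factor needed for helicase activation, read 8.09, 7.98 and 7.87 with MBD-VP16, 7.80, 7.75 and 7.96 with Aire, and 8.38, 8.23 and 8.20 with vector. It fell with Aire by 0.43 ± 0.090 (limma adjusted p = 0.0324, lost with any 1 of 6 arrays left out) and differed by -0.29 with MBD-VP16 (adjusted p = 0.0763). CDC45, listed as CDC45L, fell by 0.27 ± 0.074 with MBD-VP16 and by 0.38 ± 0.074 with Aire (limma adjusted p = 0.0497 and 0.0263, lost with any 1 of 8 and of 5 arrays left out).

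GINS4, a GINS subunit (chromosome 8, 41386740 to 41402270), was the 1 replication gene that rose. It read 7.94, 8.11 and 8.08 with MBD-VP16, 8.06, 7.95 and 7.88 with Aire, and 7.56, 7.61 and 7.53 with vector, so that every vector value was lower than all others. It rose 1.39-fold with MBD-VP16 (0.48 ± 0.076 log2 units; limma adjusted p = 0.0055), a call kept without any 1 of the 9 arrays, and 1.32-fold with Aire (0.40 ± 0.076; 0.0246, lost with any 1 of 6). The 3 other subunits of the same complex did not pass: GINS1 stood at -0.11 and -0.08, GINS2 at 0.11 and -0.20 and GINS3 at -0.22 and -0.18 with MBD-VP16 and Aire.

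Of 8 genes for the clamp, the clamp loader and the polymerases all had a negative log2 fold change with either construct, 2 fell with MBD-VP16 and 1 with Aire. POLE2, a subunit of the leading strand polymerase, read 6.23, 6.03 and 6.11 with MBD-VP16, 6.38, 6.26 and 6.34 with Aire, and 6.57, 6.41 and 6.53 with vector. It fell with MBD-VP16 by 0.38 ± 0.078 (limma adjusted p = 0.0174) and differed by -0.18 with Aire (adjusted p = 0.249). Its MBD-VP16 arrays lie below all 6 others. POLA2, of the primase complex, read 9.49, 9.43 and 9.50 with MBD-VP16, 9.42, 9.43 and 9.46 with Aire, and 9.94, 9.74 and 9.66 with vector. It fell by 0.31 ± 0.080 with MBD-VP16 and 0.34 ± 0.080 with Aire (limma adjusted p = 0.0444 and 0.048), each call lost with any 1 of 8 arrays left out. PCNA read 10.05, 10.02 and 10.02 with MBD-VP16, 9.97, 9.95 and 10.07 with Aire, and 10.24, 10.13 and 10.13 with vector. All 6 values with a construct lie below those of vector, but the differences of -0.14 and -0.17 did not pass (95% intervals -0.28 to 0.01 and -0.32 to -0.02). RFC2, RFC3, RFC4, POLA1 and PRIM1 lay between -0.25 and -0.10 in both comparisons.

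None of the genes of nucleotide supply passed by its counted cluster. RRM2, the S phase subunit of ribonucleotide reductase, read 9.58, 9.57 and 9.50 with MBD-VP16, 9.55, 9.64 and 9.42 with Aire, and 9.39, 9.14 and 9.39 with vector. Its differences of 0.24 and 0.23 did not pass (limma adjusted p = 0.133 and 0.197), nor did those of RRM1 (-0.11 and -0.09) and TYMS, thymidylate synthase (0.07 and 0.07). With both constructs the arrays of RRM1 lay below those of vector and the arrays of RRM2 above. TYMS lay above vector with Aire and overlapped with it with MBD-VP16. A second cluster with the names TYMS and C18orf56 lies on the opposite strand and was 0.42 ± 0.075 higher with MBD-VP16 and 0.34 ± 0.075 higher with Aire (limma adjusted p = 0.00917 and 0.0385).

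**Figure D4:**
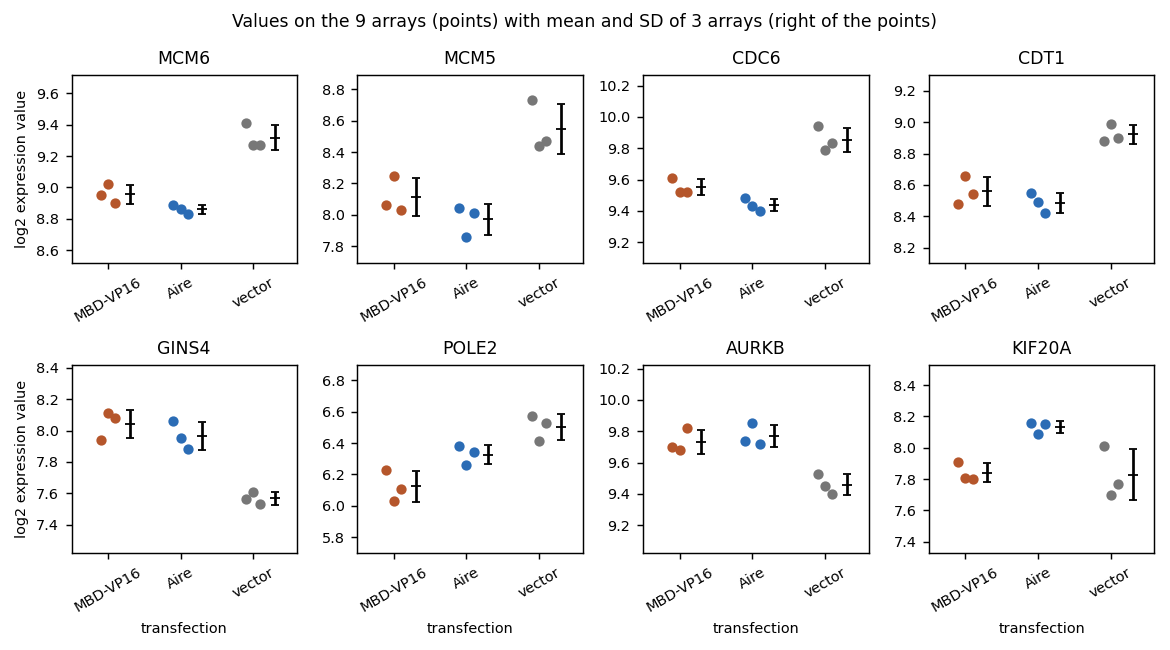
Each panel gives 1 gene, with points for the log2 value on each array of a transfection and the mean with SD of 3 arrays beside them; the vertical axes span the same number of log2 units. MCM6, MCM5, CDC6 and CDT1 are lower than vector with both constructs, GINS4 and AURKB are higher with both, POLE2 is lowest with MBD-VP16, and KIF20A is higher with Aire without passing the test.

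None of the 6 G1/S regulators passed in any comparison by limma, while 3 with MBD-VP16 and 4 with Aire had an unadjusted p under 0.05. That level was reached by 24.8% of all clusters and 34.7% of the brighter ones with MBD-VP16, and by 20.2% and 29.2% with Aire. The authors' deposited table calls 1 of the 6, E2F2 with Aire (false discovery rate 0.0396). E2F2, an activating E2F factor, read 6.78, 6.58 and 6.80 with MBD-VP16, 6.46, 6.66 and 6.77 with Aire, and 6.98, 7.26 and 7.03 with vector (-0.37 and -0.46; adjusted p = 0.0694 and 0.0538). Its values with both constructs lie below those of vector. CDC25A, the phosphatase that activates CDK2, stood at -0.36 and -0.34, with the arrays of both constructs below those of vector. CCND1, cyclin D1, read 8.65, 8.72 and 8.64 with MBD-VP16, 8.58, 8.65 and 8.70 with Aire, and 8.81, 8.89 and 8.77 with vector (-0.15 and -0.18; 95% intervals -0.30 to 0.00 and -0.33 to -0.03). E2F1 (-0.06 and -0.08), CCNE1 (-0.02 and -0.20) and CCNE2 (0.16 and -0.03), the E cyclins that partner CDK2, overlapped the vector arrays, apart from CCNE2 with MBD-VP16, which lay above them.

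Among mitosis genes AURKB, the kinase of the chromosomal passenger complex (chromosome 17, 8108049 to 8113936), rose with both constructs. It read 9.70, 9.68 and 9.82 with MBD-VP16, 9.74, 9.85 and 9.72 with Aire, and 9.53, 9.45 and 9.40 with vector. The rises of 0.27 ± 0.072 with MBD-VP16 and 0.31 ± 0.072 with Aire (limma adjusted p = 0.047 and 0.0485) were lost whichever array was left out, where the adjusted p reached 0.15 and 0.16. CCNA2, the cyclin of S phase and G2, read 9.24, 9.16 and 9.25 with MBD-VP16, 9.47, 9.35 and 9.45 with Aire, and 9.60, 9.48 and 9.40 with vector. It fell with MBD-VP16 by 0.28 ± 0.074 (limma adjusted p = 0.0493, lost with any 1 of 8 arrays left out) and differed by -0.07 with Aire. A cluster on the opposite strand that carries the names EXOSC9 and CCNA2 was 0.59 ± 0.066 lower with MBD-VP16 and 0.56 ± 0.066 lower with Aire (limma adjusted p = 0.000901 and 0.00505).

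PLK1, the kinase that drives mitotic entry, is read by 2 clusters with different values. The brighter cluster, used in the counts above by the rule of highest mean, carries the names RPL37A and PLK1 and lies on chromosome 2 (217363520 to 217368269), where PLK1 is not encoded; it differed by 0.02 and 0.05 with MBD-VP16 and Aire. The cluster at PLK1 itself (chromosome 16, 23690191 to 23701688) read 9.85, 9.76 and 9.87 with MBD-VP16, 10.09, 10.09 and 10.11 with Aire, and 9.47, 9.68 and 9.79 with vector. It rose with Aire by 0.45 ± 0.087 (limma adjusted p = 0.0255, lost with any 1 of 4 arrays left out) and stood at 0.18 with MBD-VP16 (adjusted p = 0.241). With this cluster in its place 2 of 19 mitosis genes rose with Aire.

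The other mitosis genes did not pass against vector. With Aire the 5 genes of the kinetochore, the motors and the chromosome surface all had arrays above those of vector, with log2 fold changes between 0.09 and 0.31. KIF20A, a kinesin of cytokinesis, read 8.16, 8.09 and 8.15 with Aire and 8.01, 7.70 and 7.77 with vector (0.31 ± 0.088; adjusted p = 0.0892). MKI67, the proliferation marker that coats mitotic chromosomes, read 9.40, 9.36 and 9.36 with Aire and 9.25, 9.24 and 9.08 with vector (0.18; 95% interval 0.02 to 0.35). CENPE, a kinetochore motor, stood at 0.28, and CDC20 and PTTG1, which control the onset of anaphase, at 0.23 and 0.17. With MBD-VP16 the same 5 genes lay between -0.07 and 0.06, and MKI67 read 9.23, 9.13 and 9.27. CDK1, the kinase of mitosis listed as CDC2, read 8.47, 8.49 and 8.47 with MBD-VP16, 8.59, 8.60 and 8.47 with Aire, and 8.51, 8.32 and 8.54 with vector. These values overlap, and CDK1 differed by 0.02 with MBD-VP16 and by 0.10 with Aire (95% intervals -0.15 to 0.19 and -0.08 to 0.27).

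The B cyclins and the phosphatases of mitotic entry did not pass against vector. CCNB1 and CCNB2, the B cyclins that activate CDK1, stood at 0.02 and 0.00 with MBD-VP16 and at 0.12 and 0.12 with Aire, where their arrays lay above those of vector. CDC25B and CDC25C, the phosphatases that activate CDK1, stood at 0.11 and 0.13 with MBD-VP16 and at 0.19 and 0.11 with Aire. Among the kinases and checkpoint proteins AURKA, the spindle pole kinase, stood at 0.06 and 0.16 with MBD-VP16 and Aire, and BUB1B, of the spindle checkpoint, at -0.07 and 0.10. TTK, the checkpoint kinase MPS1, stood at -0.09 and 0.06. BIRC5, survivin of the passenger complex, stood at 0.01 and 0.12 by its brighter cluster, which also carries the name EPR1. The other cluster, named BIRC5 alone and on the opposite strand to the first, stood at 0.02 and 0.10. CENPF and KIF11, a kinetochore protein and the spindle motor, stood at 0.06 and -0.07 with MBD-VP16 and at 0.19 and 0.09 with Aire. BUB1, described below against Aire, stood at -0.10 with MBD-VP16 and 0.15 with Aire.

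**Figure D5:**
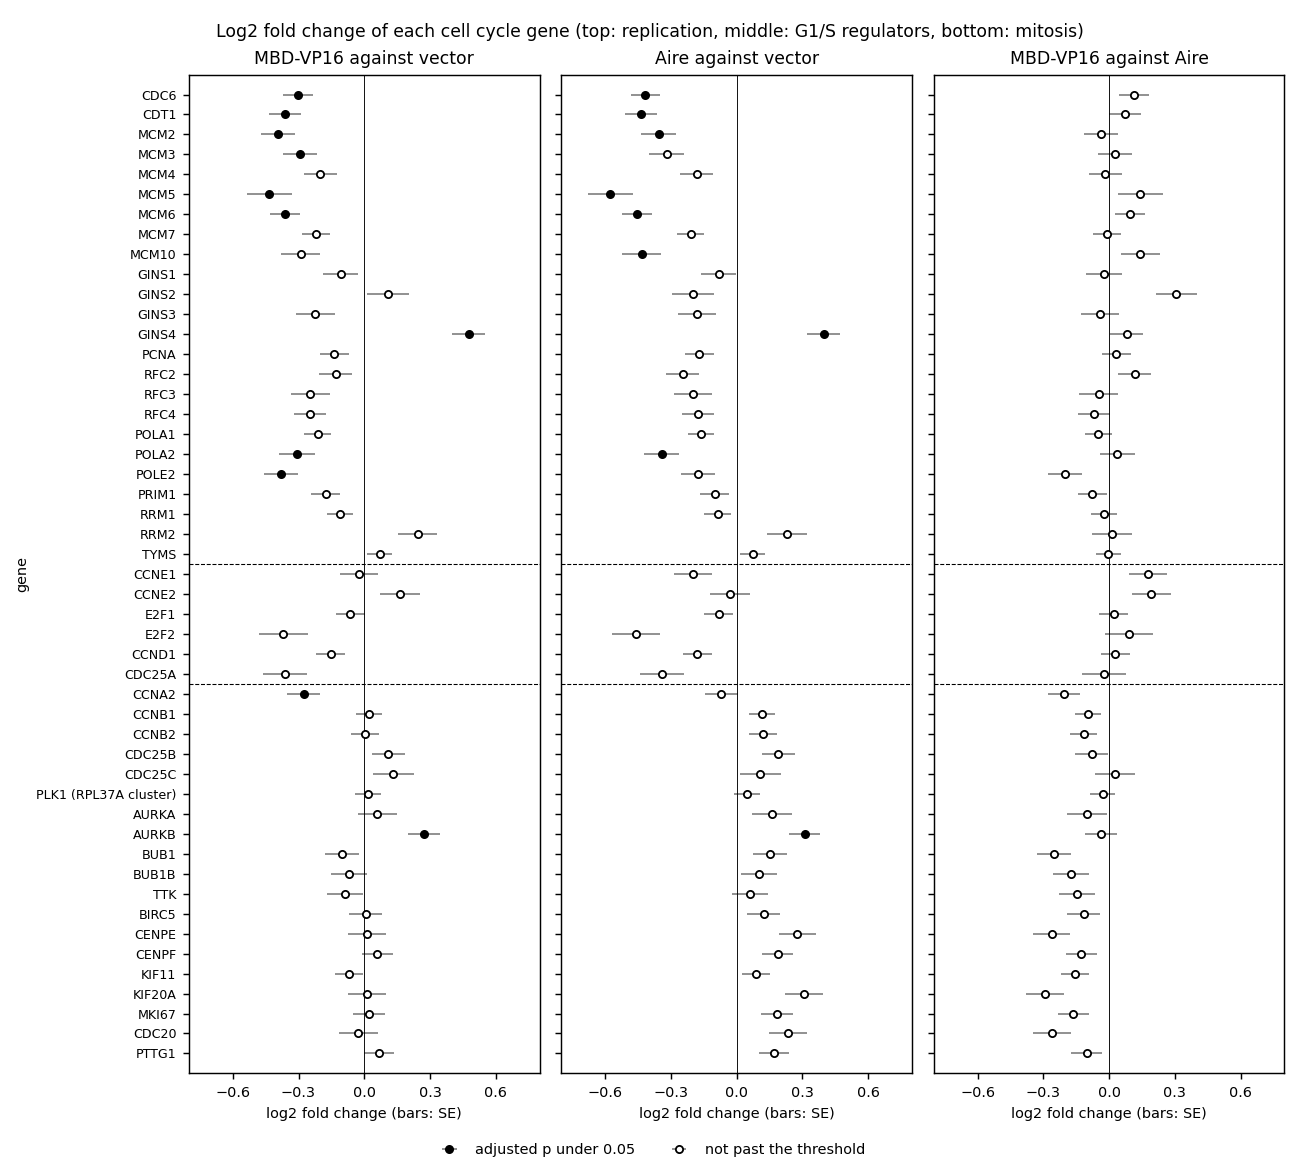
Points are log2 fold changes and bars their SE for the 49 genes (rows) in the 3 comparisons (panels), filled where the adjusted p is under 0.05. PLK1 is drawn by its cluster shared with RPL37A. The replication rows lie left of 0 against vector in both panels except GINS4, RRM2 and TYMS, and GINS2 with MBD-VP16; the mitosis rows lie right of 0 with Aire except CCNA2, and left of 0 in MBD-VP16 against Aire except CDC25C.

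Set directly against each other, MBD-VP16 and Aire gave no call among the 49 genes by limma, where 1.88% of all clusters passed (1.8% higher and 0.074% lower) and 2.06% of the brighter ones (2.0% higher and 0.0545% lower), and no call in the authors' deposited table either. An unadjusted p under 0.05 was reached by 8 genes, 2 of replication and 6 of mitosis, a level reached by 10.8% of all clusters and 11.2% of the brighter ones. The mitosis genes were lower with MBD-VP16 in 18 of 19 cases (median -0.13, beside -0.02 over all clusters), and for 13 of them all MBD-VP16 arrays lay below all Aire arrays, where 10.2% of all clusters and 13.0% of the brighter ones did. Of all clusters 18.6% were separate and 8.41% lay above, and of the brighter ones 22.7% and 9.74%. KIF20A read 7.91, 7.81 and 7.80 with MBD-VP16 against 8.16, 8.09 and 8.15 with Aire, a difference of -0.29 (95% interval -0.49 to -0.09; limma adjusted p = 0.206). BUB1, a spindle checkpoint kinase, read 7.87, 7.78 and 7.84 with MBD-VP16 against 8.14, 8.07 and 8.03 with Aire (-0.25; 95% interval -0.43 to -0.07; adjusted p = 0.225). The replication genes were split, 12 positive and 12 negative, with GINS2 highest at 0.31 (95% interval 0.09 to 0.52; adjusted p = 0.225).

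Other genes of the same pathways were counted from lists of known pathway members, drawn up with earlier results of these data known. Of 39 other replication genes 10 fell and none rose with MBD-VP16, and 6 fell and 1 rose with Aire (median log2 fold changes -0.14 and -0.11). These are 25.6% and 17.9% of the list, beside 9.89% and 4.4% of all clusters and 14.9% and 7.49% of the brighter ones. TOP2A, which untangles DNA, was the 1 that rose, by 0.29 with Aire (limma adjusted p = 0.0445, lost with any 1 of 8 arrays left out). ORC5, an origin recognition subunit listed as ORC5L, fell by 0.60 ± 0.075 with MBD-VP16 and 0.50 ± 0.075 with Aire (limma adjusted p = 0.00159 and 0.0111). MCMBP, which binds the MCM ring and is listed as C10orf119, fell by 0.38 and 0.41, and UNG, which removes uracil from DNA, by 0.44 and 0.44. MCM8, a helicase of recombination, fell by 0.26 and 0.41, and POLE3, a small polymerase epsilon subunit, by 0.33 and 0.25. The call of MCM8 with MBD-VP16 (limma adjusted p = 0.0437) did not hold when any 1 of 8 arrays was omitted, nor that of POLE3 with Aire (0.0481) when any 1 of the 9 was. The calls of UNG and MCM8 with Aire were lost with 5 and 3 arrays, and those of ORC5 and MCMBP with Aire with 2 each.

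Of 34 other G1/S and checkpoint genes 6 fell and 1 rose with MBD-VP16, and 5 fell and 1 rose with Aire. These are 20.6% and 17.6% of the list, against the same background shares. CHEK1, the replication checkpoint kinase, read 8.44 to 8.53 with MBD-VP16, 8.50 to 8.58 with Aire and 8.91 to 9.11 with vector. It fell by 0.53 ± 0.071 and 0.48 ± 0.071 (limma adjusted p = 0.00253 and 0.0109), kept without any 1 of the 9 arrays. RBL1, the p107 pocket protein that restrains E2F, fell by 0.48 and 0.38, LIN37, of the MuvB complex, by 0.59 and 0.40, and CDK6, a partner of cyclin D, by 0.36 and 0.39. With MBD-VP16 the calls of RBL1 and LIN37 were kept without any 1 array and that of CDK6 was lost with 4 arrays, and with Aire the 3 calls were lost with 4, 8 and 7 arrays. CDKN1A, the CDK inhibitor p21, was the 1 that rose, with 8.80 to 8.89 with MBD-VP16, 8.87 to 8.88 with Aire and 8.29 to 8.43 with vector (0.48 ± 0.065 and 0.53 ± 0.065; limma adjusted p = 0.00231 and 0.00579).

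Of 60 other mitosis genes 1 rose and 1 fell with MBD-VP16, 3 rose and none fell with Aire, and none passed between the constructs. Their median log2 fold changes were 0.01 with MBD-VP16, 0.12 with Aire and -0.11 for MBD-VP16 against Aire, where 54 of 60 were negative. CCNF, a cyclin F-box protein, rose by 0.31 and 0.37 with MBD-VP16 and Aire (limma adjusted p = 0.0278 and 0.0246). CDCA8, of the passenger complex, and HMMR, a spindle protein, rose with Aire by 0.41 and 0.27, and SMC4, a condensin subunit, fell with MBD-VP16 by 0.29. These calls lie near the threshold: HMMR (limma adjusted p = 0.0479) lost it whichever array was left out, CDCA8 (0.0357) with 7 arrays, SMC4 (0.0309) with 8 and CCNF with 5 in each comparison. The shares that passed, 3.33% with MBD-VP16 and 5% with Aire, lie below and near those of all clusters. Both lie below those of the brighter clusters, 14.9% and 7.49%.

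Vector replicate 1 varied most about its group mean, with an SD of 0.233 log2 units over all clusters where the other arrays had 0.168 to 0.197, and it had the highest replication and mitosis medians of the vector arrays. Without it the median of the replication genes was -0.17 with MBD-VP16 and -0.13 with Aire, that of the mitosis genes 0.05 and 0.21, and 4 and 5 of the 49 genes passed. Over all clusters 7.03% and 2.44% then passed, beside 9.89% and 4.4% with all arrays. All 11 and 9 called genes kept the sign of their change. Array medians ran from 6.21 to 6.23 with MBD-VP16, from 6.18 to 6.19 with Aire and from 6.11 to 6.16 with vector. Of 8 markers of HEK293 and embryonic kidney, 6 had a vector mean at or above the median cluster of 6.18, with VIM at 10.47 and PAX2 at 5.92, against 1 of 5 leukocyte markers (CD68), 1 of 4 fibroblast markers (COL1A1) and 0 of 5 endothelial markers. The summed log2 levels of the leukocyte markers were 25.8 to 26.9 with MBD-VP16, 26.0 to 26.4 with Aire and 25.5 to 26.5 with vector, those of the fibroblast markers 22.1 to 22.4, 22.4 to 22.8 and 21.7 to 22.5, and those of the endothelial markers 21.1 to 21.9, 20.7 to 21.3 and 20.8 to 21.3. KRT18, a keratin of the kidney list, fell by 0.41 with MBD-VP16 and 0.38 with Aire, but its cluster lies on another chromosome than the gene and cross-hybridises. CD68, also a lysosomal gene, rose with MBD-VP16 by 0.64 (limma adjusted p = 0.00809), and the part of other cells in the results was not tested.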

How the data were processed

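The authors deposited log2 expression values for 28829 transcript clusters on 9 arrays, with RMA named in the submitters' processing notes and no version given in the sources used. In RMA probe signals are normalized between arrays before they are combined, and differences at low signal can be compressed; the medians of the deposited arrays still ran from 6.11 to 6.23. The authors' comparisons were deposited too, as log2 fold changes, as linear fold changes (a ratio) and as p-values, plain and corrected for false discovery, per the file headers. The sources used here do not give their test, and 9 per-array columns of that table were left unused. Recomputed log2 differences were at most 0.0133 from those deposited.

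Of the clusters, 3150 held no value, leaving 25679, and all were fitted together (limma 3.58.1, R 4.3.3, lmFit then eBayes, with group as the only factor and a prior of 2.93 degrees of freedom). P-values were adjusted by Benjamini-Hochberg over the 25679 clusters in each of 3 comparisons, with a threshold of 0.05, two-sided. A gene with several clusters (5 of the 49) was counted by the one of highest mean. Every gene is accounted for by role; values per array are given for genes past the threshold, up to 6 replication, 3 G1/S and 6 mitosis genes per comparison by adjusted p, for MCM5, MCM6, PLK1, CCND1, CDK1, PCNA and MKI67, and for a few chosen after their values were seen (KIF20A, BUB1, E2F2, RRM2). Of the other pathway lists up to 4 genes each are named by adjusted p in a comparison. Members and lists were chosen with earlier results of these data known. The number of arrays, 3 per group, limits the precision. On simulated data over 25679 clusters the fit recovered, for MBD-VP16 against vector, 12% of changes of 0.3 log2 units, 34% of 0.5 and 80% of 1, with 3 false calls. For Aire against vector it recovered 0%, 24% and 80% with 7 false calls, and for MBD-VP16 against Aire 2%, 48% and 82% with 5. Each size was given to 50 clusters in a comparison. Far fewer clusters changed there than passed in the data, 1131 with Aire and 2539 with MBD-VP16 against vector. The adjustment is stricter where few clusters change, so these shares do not measure the recovery in the data. The median SE over all clusters was 0.1 log2 units in each comparison, and that of the 49 genes was 0.0756. Recovery at the SE of the 49 genes was not tested, so these shares are not read as theirs. Most changes reported here are of 0.5 or less. The labels do not say whether equal replicate numbers pair the samples, and the main fit did not pair them. Alternatives covered the clusters tested, the normalization, the variance model, the arrays in the fit, the replicate block and the cluster of a gene.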

Additional observations from a re-analysis of the deposited data

How the results depend on the processing

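The medians of both classes kept their direction against vector under every alternative and without any 1 array, with 1 exception among values near 0, the mitosis median with MBD-VP16. With each array centred on its median this value was -0.06 in place of 0.01, the replication median with MBD-VP16 was -0.30 in place of -0.22, and that of MBD-VP16 against Aire was -0.03 in place of 0.00.

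Counts of calls depended on the fit. For all 49 genes, 9 with Aire became 16 with only clusters at or above the median signal, 19 with an intensity trend, 1 with only the 2 groups compared and 4 with the replicate block, and 11 with MBD-VP16 became 18, 21, 3 and 7 under the same settings. Of the clusters tested, 18.9%, 8.99%, 1.2% and 2.32% passed in these settings with Aire, beside 4.4% in the main fit. With MBD-VP16 27.4%, 14.9%, 5.72% and 7.53% passed, beside 9.89%. Shares with Aire and MBD-VP16 were 6.98% and 13.6% with only clusters with 1 symbol and 4.66% and 12.3% with centred arrays. They were 4.68% and 10.3% after a repeated quantile normalization and 4.26% and 9.62% with robust eBayes. For replication genes, 8 with Aire became 13 with the trend, 1 with the 2 groups and 4 with the replicate block, and 9 with MBD-VP16 became 14 with the brighter clusters, 17 with the trend and 3 with the 2 groups. For mitosis genes, 1 with Aire became 2 with only clusters with 1 symbol, 2 with clusters on the own chromosome of the gene (an alternative chosen after seeing the data, as was setting each vector array against the other 2), 3 with the brighter clusters, 3 after a repeated quantile normalization, 4 with the trend, 3 with the cluster of lowest mean, and 0 with centred arrays, robust eBayes, the 2 groups or the replicate block. The 2 with MBD-VP16 became 1 with centred arrays or robust eBayes and 0 with the 2 groups or the replicate block. For the G1/S genes, 0 with Aire became 1 with only clusters with 1 symbol, with centred arrays or in the authors' deposited table and 2 with the brighter clusters or the trend. The 0 with MBD-VP16 became 2 with only clusters with 1 symbol, with the brighter clusters, with centred arrays or with the trend, and 1 with the replicate block. The genes called were E2F2 and CDC25A. Of the 9 calls with Aire 8 are calls in the authors' deposited table too (MCM2 is not, MCM3 and E2F2 are), as are all 11 with MBD-VP16. MBD-VP16 against Aire gave 0 under every setting run.

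Leaving out 1 array gave 0 to 6 genes with Aire (replication 0 to 6, mitosis 0 to 1) and 2 to 10 with MBD-VP16 (replication 2 to 9, mitosis 0 to 1). For the G1/S genes it gave 0 to 0 with Aire and 0 to 1 with MBD-VP16. Over all clusters 1.12% to 3.65% then passed with Aire and 5.24% to 9.37% with MBD-VP16. The medians then ran from -0.22 to -0.13 (replication) and 0.12 to 0.21 (mitosis) with Aire, from -0.25 to -0.17 and -0.01 to 0.05 with MBD-VP16, and from -0.01 to 0.01 and -0.14 to -0.12 between the constructs. Over 837 values of named genes under the alternatives, 98 lost a call, 8 gained one and 0 turned a called direction. Most of the 837 had no call in the main fit to lose, so 98 of 837 is not the share of calls lost. Those without a call include all values between the constructs and all of CCND1, PCNA, MKI67 and PLK1. The cause of these moves was not tested. Same-numbered arrays of different groups correlated at -0.0686 to 0.135 in their deviations, and arrays of unlike number at -0.147 to 0.0875. These values do not show how the cultures were handled.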
